A study of Xenopus laevis with 8 samples.

Results

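The genes described here encode the ligands, receptors, SMAD proteins, extracellular antagonists and response genes of bone morphogenetic protein (BMP) and transforming growth factor beta (TGF-beta) signaling in the hindlimb bud of *Xenopus laevis*. They were taken from the annotation of the array by symbol: names that begin, without the .L or .S ending, with bmp, gdf, smad, tgfb (ligands and receptors), acvr, msx, grem, fst, chrd or inhb, together with nog, bambi, id1 to id4, twsg1, tll1 and tll2. This frog is allotetraploid, and .L and .S stand for gene copies on its long and its short chromosomes. The rule found 75 of 15491 probe sets, which gave 61 of 13718 genes or unnamed probe sets. For 6 of the 61 the annotation names both copies, of bmp2, bmp4, acvr2b, bmpr1a, bambi and smad4.2, so that the copies cannot be told apart there; these are called shared. The symbols tgfb1i1.L, tgfbi.L and tll2l.L resemble the rule and were left out, because they are not ligands, receptors or listed names. No gdf5 or id1 probe set was found by the rule.

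RNA came from whole hindlimb buds of stage 52 tadpoles, held for 24 h either in cyclopamine at 1 µg/ml or in its vehicle ethanol at the matching concentration, so that ethanol was common to both groups. Cyclopamine is a plant alkaloid that inhibits Smoothened, the membrane protein that transmits Hedgehog signals. The 8 Affymetrix arrays, 4 per group, each held a pool of 18 to 22 buds. The arrays form 4 pairs of ethanol and cyclopamine, and by the methods of the study the pools of a pair shared clutch, day of exposure and extraction: clutch A gave pairs 1 and 2, and clutch B gave pairs 3 and 4. A whole bud contains mesenchyme, epidermis, cartilage precursors, muscle, blood and vessels, and in such bulk samples fewer cells of a type and less RNA per cell cannot be told apart.

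BMPs are secreted dimers that bind type I and type II receptor kinases, and the receptors phosphorylate SMAD1, SMAD5 and SMAD9, which enter the nucleus with SMAD4. TGF-beta and activin act through type I and type II receptors on SMAD2 and SMAD3. Noggin, Chordin, Gremlin and Follistatin bind ligands outside the cell, Tolloid proteases release BMPs from Chordin, and SMAD6, SMAD7 and BAMBI act as feedback inhibitors. In the vertebrate limb bud, BMPs act in the apical ectodermal ridge, in interdigital cell death and in cartilage formation, and Gremlin keeps BMP activity low in a loop that runs between Sonic hedgehog and the fibroblast growth factors of the ridge.

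Values are intensities after quantile normalization, with a floor at 43.7, the 20th percentile of all values, and they are not compared between probe sets of different genes. Differences are cyclopamine minus ethanol on the log2 scale, with a standard error (SE) from limma and p-values adjusted by Benjamini-Hochberg over the 12380 genes or probe sets that were above the floor on at least 1 array. Of the 61 BMP and TGF-beta genes, 56 were tested. The others, bmp7.2.L, gdf1.S, gdf6.S, chrd.1.S and bmpr1a.S, did not exceed the floor on any of the 8 arrays.

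The tissue of the samples was checked with lists of marker genes. All 7 limb mesenchyme genes on the array were above the floor on some array. Of the 7, 2 were lower with cyclopamine at p under 0.05 without adjustment in limma, where 3.88% of all genes tested were. Their summed intensity was 10135, 6769, 11081 and 7785 on ethanol arrays 1 to 4 and 8125, 4698, 7141 and 10217 on cyclopamine arrays 1 to 4, lower in pairs 1 to 3 and higher in pair 4. Cyclopamine array 4 stood apart: the summed intensity of 6 cartilage genes was 9611 there, against 4653 to 5893 on the other cyclopamine arrays and 4548 to 5574 on the ethanol arrays. The sum of 11 epidermal genes was 7029 on the same array, against 11197 to 17222 on the other cyclopamine arrays and 8161 to 14831 with ethanol. The sum of 15 muscle genes ranged from 2516 to 9386 with ethanol and from 2898 to 11356 with cyclopamine, and that of 8 blood genes from 90926 to 101797 and from 83363 to 96432. The sums of 4 endothelial genes, 1853, and of 11 nerve and glial genes, 1066, were also highest on cyclopamine array 4. With ethanol these sums ranged from 1097 to 1533 and from 756 to 891. The next highest nerve and glial sum was 1008, on cyclopamine array 1. Among nerve and glial genes, nefl.L, nefm.L and nefm.S were at the floor on every array.

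The first comparison asks how transcripts of BMP and TGF-beta signaling differed between cyclopamine and ethanol. None of the 56 genes passed the adjusted threshold of 0.05, where 0.0162% of all genes tested did. The lowest adjusted p among them was 0.618, and the methods' t-test also called 0. Without adjustment, at p under 0.05, 7 had higher values with cyclopamine, 12.5% of the 56 against 2.4% of all genes, and 2 were lower, 3.57% against 3.88%. These counts depended on the model and the arrays. With the pair as a block, 8 were higher, 14.3% against 3.47%, and 5 lower, 8.93% against 5.48%. By the methods' t-test 2 were higher, 3.57% against 2.07%, and 3 lower, 5.36% against 3.63%. Leaving out 1 array gave between 1 higher (without cyclopamine array 1) and 11 higher (without cyclopamine array 2). The share over all genes was not counted in those fits, so these counts have no background beside them. By role, 7 of 8 BMP and GDF ligands had lower means with cyclopamine, and 10 of 11 response genes and 10 of 12 receptors had higher means. Among all genes tested, 6201 of 12380 means were higher. Several entries of a role measure the same gene or its copies, as for bmp2, bmp4, bambi and bmpr1a. The ligand gdf3.S was above the floor on 1 array only. Over all 56 genes, 37 means were higher and 19 lower, with a median difference of 0.08, beside a median of 0.00 over all genes.

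**Figure D1:**
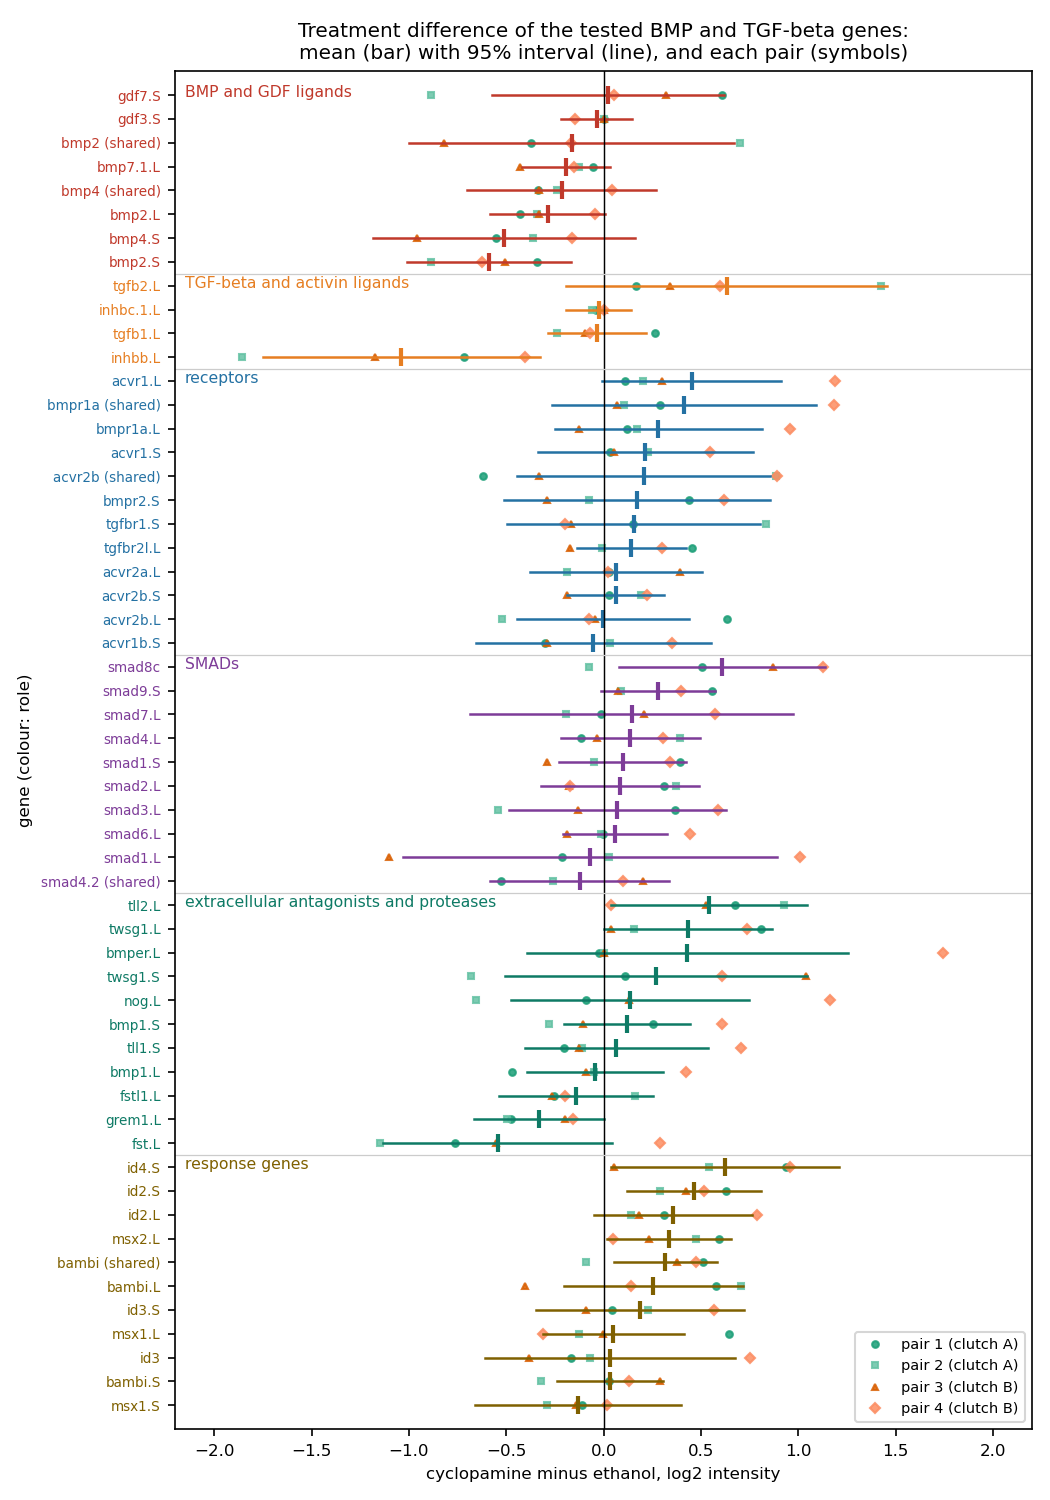
Difference in log2 intensity, cyclopamine minus ethanol, for the 56 genes tested, grouped by role (colour). Vertical bars are means of 4 arrays per group, lines are 95% intervals from limma and symbols are the 4 pairs; the BMP and GDF ligands lie mostly left of 0, from −0.59 to 0.02, and the response genes mostly right of it, from −0.13 to 0.62.

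Among the BMP ligands, bmp2.S had the largest difference, followed by bmp4.S. Bmp2 is expressed in the posterior mesenchyme and the ridge of the tetrapod limb bud, where it is used as a readout of Hedgehog signaling. The intensity of bmp2.S was 225, 261, 314 and 219 on ethanol arrays 1 to 4, and 177, 142, 221 and 142 on cyclopamine arrays 1 to 4. It was lower with cyclopamine in 4 of 4 pairs, although cyclopamine array 3 lay just above ethanol array 4. The difference was −0.59 (SE 0.18), 1.5-fold lower with cyclopamine, with an adjusted p of 0.63 in limma. For the .L copy the intensities were 697, 563, 687 and 516 with ethanol and 518, 444, 545 and 501 with cyclopamine, again lower in 4 of 4 pairs, with groups that overlapped. The difference of bmp2.L was −0.29 (SE 0.13, adjusted p 0.821). The shared bmp2 probe set varied more between arrays than between treatments: it read 176, 171, 424 and 327 with ethanol and 136, 278, 241 and 290.5 with cyclopamine, a difference of −0.17 (SE 0.36).

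The probe set bmp4.S read 111, 101, 231 and 139.8 with ethanol and 75.4, 78.1, 119 and 125 with cyclopamine, lower in 4 of 4 pairs. Bmp4, a close relative of Bmp2, is a ligand of the ridge and the underlying mesenchyme. Its difference was −0.51 (SE 0.29, adjusted p 0.882), the groups overlapped, and without ethanol array 3, the highest, it was −0.26. With the pair as a block in limma the SE was 0.15 and the adjusted p 0.519. The shared bmp4 probe set read 1454, 1150.4, 1946 and 1546 with ethanol and 1151, 975, 1548 and 1594 with cyclopamine, lower in pairs 1 to 3 and not in pair 4, with a difference of −0.22 (SE 0.21). That difference was −0.09 without ethanol array 3 and −0.08 without cyclopamine array 2. Its SE with the pair as a block in limma was 0.11, with an adjusted p of 0.62. Intensities of bmp7.1.L, whose product forms heterodimers with the other BMPs, were 1559.7, 1496, 1884 and 1588 with ethanol and 1501, 1370.0, 1397 and 1427 with cyclopamine. They were lower in 4 of 4 pairs by a small amount, −0.19 (95% interval −0.42 to 0.03), and by −0.12 without ethanol array 3. The remaining ligands tested, gdf7.S and gdf3.S, had differences of 0.02 and −0.04; gdf3.S was above the floor on 1 array.

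The largest difference of all 56 genes was that of inhbb.L, which encodes the beta B subunit of activin and inhibin. It read 190.1, 159, 198 and 163 with ethanol and 116, 43.7, 87.8 and 123 with cyclopamine, where the value of cyclopamine array 2 is the floor. No cyclopamine array reached the lowest ethanol array. Groups that did not overlap, lower with cyclopamine, were found for this gene alone of the 56, 1.79%, beside 2.31% of all genes, and for none of the 56 in the higher direction, beside 1.2%. The difference of inhbb.L was −1.04 (SE 0.31), 2.06-fold lower, with an adjusted p of 0.618. Without cyclopamine array 2, the array at the floor, it was −0.71, 1.64-fold lower, and without cyclopamine array 4 it was −1.21.

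The other ligands of the TGF-beta and activin class had smaller differences or the other sign. Tgfb2.L, a TGF-beta ligand, read 138, 43.7, 129 and 114 with ethanol and 155, 117, 163 and 173 with cyclopamine, higher in 4 of 4 pairs with groups that overlapped. Its difference of 0.63 (SE 0.36, adjusted p 0.882) includes ethanol array 2 at the floor, and it was 0.25 without that array. Tgfb1.L had a difference of −0.04 with a 95% interval from −0.29 to 0.22, and inhbc.1.L was above the floor on 2 arrays only.

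**Figure D2:**
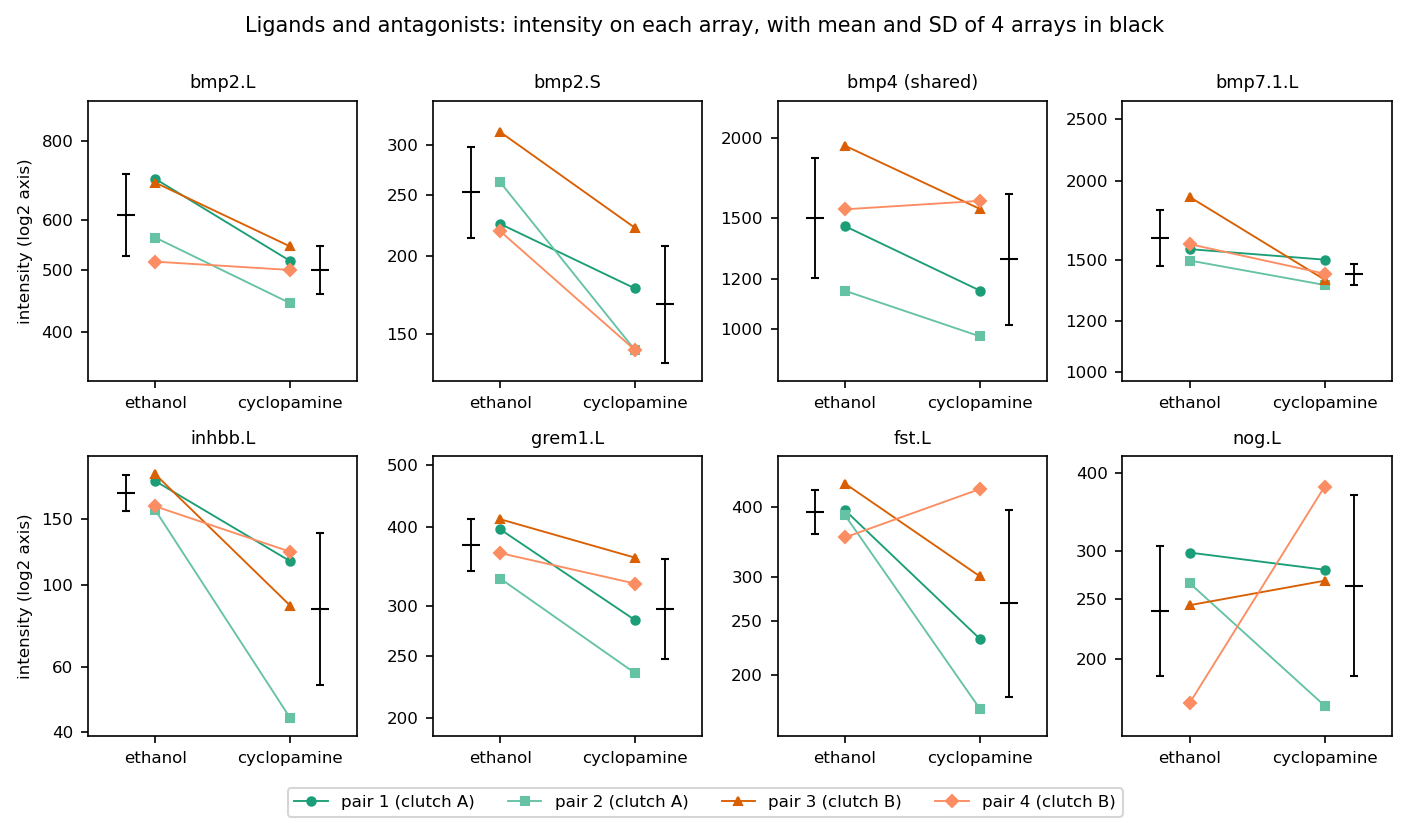
Intensity (log2 axis) of 4 BMP ligands or probe sets, the activin subunit gene inhbb.L and the antagonist genes grem1.L, fst.L and nog.L on each array; lines join the arrays of a pair and black bars give mean and SD of 4 arrays on the log2 scale. Every line slopes downward for bmp2.L, bmp2.S, bmp7.1.L, inhbb.L and grem1.L, and pair 4 runs upward for fst.L, nog.L and the shared bmp4 probe set.

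Receptor genes had small differences, with 10 of 12 above 0, a median of 0.16 and none past an unadjusted p under 0.05. Without cyclopamine array 4 the median was 0.04, with 10 of 12 above 0. The largest difference on all arrays was that of acvr1.L, a type I receptor for BMPs. It read 809.9, 596, 695 and 543 with ethanol and 875, 686, 857 and 1240.0 with cyclopamine, higher in 4 of 4 pairs, with groups that overlapped. The difference was 0.45 (SE 0.20, adjusted p 0.819), and without cyclopamine array 4, the highest array, it was 0.29. The .S copy was also higher in 4 of 4 pairs, by 0.21 (SE 0.24). The BMP type I receptor bmpr1a was measured by bmpr1a.L, at 0.28 (SE 0.23), and by the shared probe set, at 0.41 (SE 0.29). On the latter, cyclopamine array 4 read 951 and every other array between 347 and 661. For the type II receptor bmpr2.S the intensities were 205, 221, 139 and 179 with ethanol and 278, 209, 114 and 274 with cyclopamine, and the groups overlapped at a difference of 0.17 (SE 0.30). The activin and TGF-beta receptors acvr1b.S, acvr2a.L, acvr2b.L, acvr2b.S, tgfbr1.S and tgfbr2l.L had differences between −0.05 and 0.15, and the shared acvr2b probe set 0.21 (SE 0.28).

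The SMAD genes had 8 of 10 differences above 0 and a median of 0.09. Without cyclopamine array 4 the median was 0.00 and 5 of 10 were above 0. The largest difference was that of smad8c, which read 73.9, 61.0, 49.4 and 52.9 with ethanol and 105, 58.0, 90.3 and 115 with cyclopamine. It was higher in pairs 1, 3 and 4, with a difference of 0.61 (SE 0.23, adjusted p 0.737), close to the floor on several arrays. Smad9.S, a receptor-regulated SMAD of the BMP branch, was higher in 4 of 4 pairs, at 0.28 (SE 0.13, adjusted p 0.821). In the same branch smad1.L had a difference of −0.07 (SE 0.42) and smad1.S of 0.10 (SE 0.14). Each smad1 copy was higher in 2 pairs and lower in 2. The SMADs of the TGF-beta branch, smad2.L and smad3.L, had differences of 0.08 and 0.07, and the common partner smad4.L a difference of 0.14. For the shared smad4.2 probe set it was −0.12 (SE 0.20). Smad2.L read 506, 365, 479 and 427 with ethanol and 627, 473, 424 and 378 with cyclopamine, higher in both pairs of clutch A and lower in both pairs of clutch B. Of the inhibitory SMADs, smad6.L had a difference of 0.06 (95% interval −0.21 to 0.33) and smad7.L of 0.14 (−0.69 to 0.97).

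The antagonists and proteases differed among themselves. Grem1.L encodes Gremlin, whose transcript in the posterior limb mesenchyme is maintained by Sonic hedgehog in chick and mouse. It read 396, 332, 411 and 364 with ethanol and 285, 235, 358 and 326 with cyclopamine. All 4 pairs were lower with cyclopamine while the groups overlapped, and the difference was −0.33 (SE 0.15, adjusted p 0.807), 1.26-fold lower, or −0.22 without cyclopamine array 2. Follistatin, which binds activins and several BMPs, was measured by fst.L at 395, 387, 441 and 353 with ethanol and 232, 174, 301 and 431 with cyclopamine. Pairs 1 to 3 were lower and pair 4 higher, for a mean difference of −0.54 (SE 0.26, adjusted p 0.833). Without cyclopamine array 4, the array that went the other way, the difference was −0.77 (SE 0.19, adjusted p 0.638), while without cyclopamine array 2 it was −0.34. Noggin, an antagonist made by cartilage condensations, had no common direction: nog.L read 298, 266, 245 and 170.3 with ethanol and 279, 168, 268 and 381 with cyclopamine. The difference of nog.L was 0.14 (SE 0.27), and −0.04 without cyclopamine array 4, which was the highest for nog.L and for the cartilage list. The part of cartilage in this value was not tested.

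Over the whole role, 7 of 11 antagonists and proteases had higher means with cyclopamine, with a median of 0.12, and 5 of 11 without cyclopamine array 4, with a median of −0.04. Tll2.L encodes a Tolloid-like protease. It read 71.1, 48.1, 73.0 and 105 with ethanol and 113, 91.3, 105 and 108 with cyclopamine, higher in 4 of 4 pairs, at 0.54 (SE 0.22, adjusted p 0.768), or 0.35 without ethanol array 2. Twsg1.L, for Twisted gastrulation, which binds BMPs and Chordin, read 681, 806, 1146 and 675 with ethanol and 1192, 896, 1177 and 1124 with cyclopamine. It was higher in 4 of 4 pairs with groups that overlapped, at 0.43 (SE 0.19, adjusted p 0.795). The proteases bmp1.L, bmp1.S and tll1.S had differences between −0.05 and 0.12. Bmper.L, a Chordin-like BMP-binding protein, was at or near the floor on 7 arrays, between 43.7 and 55.8, and read 146 on cyclopamine array 4.

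The response genes of the rule, which are ID, MSX and BAMBI entries, had the opposite direction to the BMP and GDF ligands. Of their means, 10 of 11 were higher after cyclopamine, with a median of 0.26. For 33 further response genes outside the rule, 20 means were higher and 13 lower, with a median of 0.07. The ID genes encode inhibitors of basic helix-loop-helix factors and are direct targets of BMP-activated SMADs. Their means were higher for 5 of 5 gene entries, with a median of 0.36, although the probe sets of the id3 entry differed in sign. Id2.S read 506, 496, 598 and 641 with ethanol and 781, 606, 800.2 and 916 with cyclopamine. All pairs were higher, with cyclopamine array 2 below ethanol array 4, and the difference was 0.46 (SE 0.15, adjusted p 0.648), 1.38-fold. Id2.L read 2464, 2069, 2938 and 2103 with ethanol and 3052, 2283, 3331 and 3636 with cyclopamine, also higher in 4 of 4 pairs, at 0.36 (SE 0.18, adjusted p 0.842).

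Id4.S had the largest difference of the response genes, 0.62 (SE 0.25, adjusted p 0.768), 1.54-fold higher with cyclopamine. Its arrays read 202, 163, 288 and 248 with ethanol and 387, 238, 299 and 479.9 with cyclopamine, higher in 4 of 4 pairs with groups that overlapped. The id3 genes did not share this size. Id3.S read 3331, 2124, 3220.4 and 3278 with ethanol and 3425, 2489.9, 3023 and 4853 with cyclopamine, a difference of 0.19 (SE 0.23). For the probe sets named id3 without an ending the arrays read 3041, 1809, 3573 and 1816 with ethanol and 2712, 1721, 2740.1 and 3059.9 with cyclopamine, a difference of 0.03 (SE 0.28). Only pair 4 was higher for this mean of probe sets, and with array medians made equal the difference was −0.01. Taken alone, the probe sets had differences of 0.23 (SE 0.26) and −0.16 (SE 0.32).

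The MSX genes encode homeodomain factors of the ridge and the distal mesenchyme that respond to BMPs. Msx2.L read 241, 203, 278 and 288 with ethanol and 363, 282, 326 and 297 with cyclopamine as the mean of its probe sets, higher in 4 of 4 pairs, at 0.34 (SE 0.14, adjusted p 0.775). Its brighter probe set read 834, 945, 1128 and 1079 with ethanol and 1449, 1167, 1620.4 and 1355 with cyclopamine. Taken alone, that probe set had a difference of 0.49 (SE 0.14, adjusted p 0.617), and the dimmer probe set, between 43.7 and 90.8, had a difference of 0.18 (SE 0.20). Msx1.L read 418, 547, 585 and 661 with ethanol and 653, 501, 583 and 533 with cyclopamine, higher in pair 1 only, at 0.05 (SE 0.16). Msx1.S was dim, at 79.0, 53.5, 89.3 and 70.0 with ethanol and 73.1, 43.7, 81.0 and 70.9 with cyclopamine, with a difference of −0.13 (SE 0.23).

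BAMBI is a pseudoreceptor without a kinase whose gene is switched on by BMP signaling. The shared bambi probe set read 1131, 1383, 1181 and 1073 with ethanol and 1612, 1297, 1531 and 1489.9 with cyclopamine. Pairs 1, 3 and 4 were higher and pair 2 lower, and the difference was 0.32 (SE 0.11, adjusted p 0.723), 1.25-fold. Bambi.S read 193, 251, 195 and 206 with ethanol and 197, 201, 239 and 226 with cyclopamine, a difference of 0.03 (SE 0.12).

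**Figure D3:**
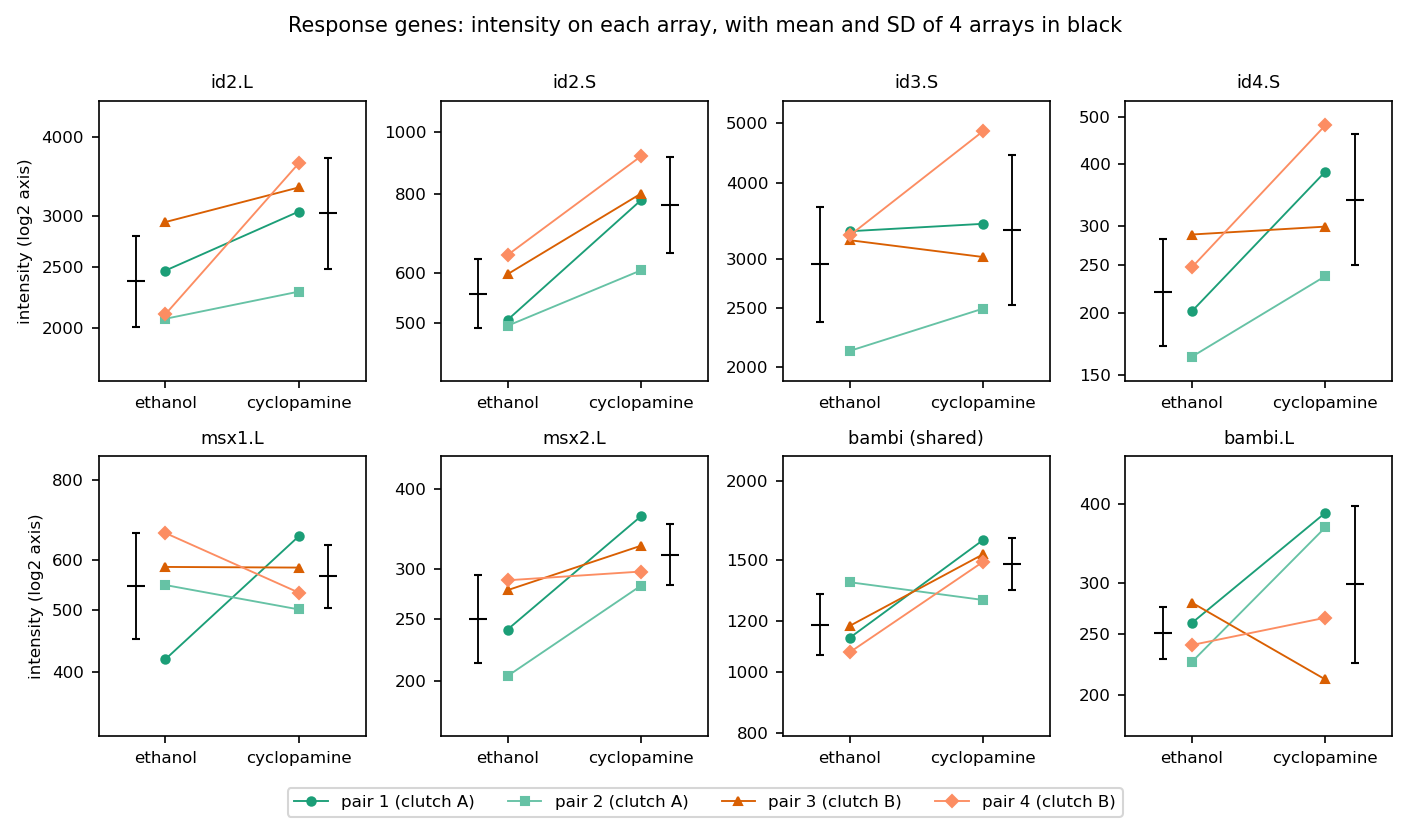
Intensity (log2 axis) of ID, MSX and BAMBI genes on each array; lines join the arrays of a pair and black bars give mean and SD of 4 arrays on the log2 scale. Every line slopes upward for id2.L, id2.S, id4.S and msx2.L, and for bambi.L the lines of clutch A (387 and 367 with cyclopamine) end above those of clutch B (212 and 265).

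The pairs were then compared, since a pair shares its clutch and its handling. With cyclopamine, 11 of the 56 genes were higher in 4 of 4 pairs, 19.6% against 6.47% of all genes, and 6 were lower in 4 of 4, 10.7% against 9.41%. A pair with equal values, as at the floor, counted for neither direction. Of the 11, 4 were response genes (id2.L, id2.S, id4.S and msx2.L), 3 were receptor genes or probe sets, and the others were tgfb2.L, smad9.S, tll2.L and twsg1.L. Of the 6, 4 were BMP ligands (bmp2.L, bmp2.S, bmp4.S and bmp7.1.L), beside inhbb.L and grem1.L. No member of the ligand roles other than tgfb2.L was higher in 4 of 4 pairs, and no response gene was lower in 4 of 4.

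Pair 4 differed from the others. In pairs 1 to 4 the median difference of the 56 genes was 0.03, −0.05, −0.09 and 0.32, and 55.4%, 41.1%, 37.5% and 73.2% of them were higher with cyclopamine, against 45.3%, 44.5%, 44.4% and 47.2% of all genes. Equal values, as at the floor, counted as not higher, which lowers the shares over all genes. Of the 56, 31, 23, 21 and 41 were higher and 24, 31, 33 and 14 lower. Among all genes 5606, 5510, 5501 and 5848 were higher and 5903, 6090, 5921 and 5703 lower. The antagonists and proteases had medians of −0.09, −0.11, −0.09 and 0.61, and the receptors of 0.12, 0.14, −0.15 and 0.45. The BMP and GDF ligands had negative medians in every pair, −0.34, −0.29, −0.38 and −0.15, and the response genes positive ones, 0.51, 0.14, 0.05 and 0.47. Without cyclopamine array 4, the array with the high cartilage and low epidermal sums, 31 of the 56 differences were above 0 in place of 37 and the median was 0.01. Then 2 genes were higher at p under 0.05 without adjustment, 3.57% against 2.18% of all genes in the same fit, and 3 lower, 5.36% against 3.44%. The median of the BMP and GDF ligands was −0.29 without that array, with 0 of 8 above 0. That of the response genes was 0.27, with 9 of 11 above 0. The limb mesenchyme sum was also lower in pairs 1 to 3 and higher in pair 4, as were fst.L and, in the same pairs, the shared bmp4 probe set. The part of cell composition in these values, and in those of the ligands and antagonists, was not tested.

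**Figure D4:**
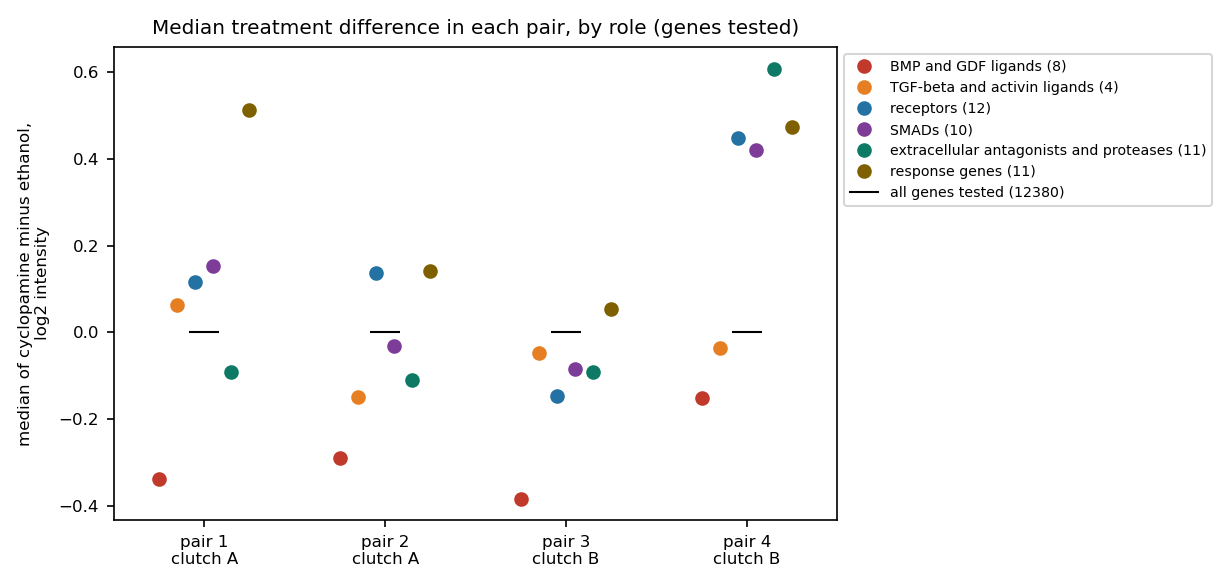
Median difference in log2 intensity, cyclopamine minus ethanol, over the genes of each role in each pair (points, number of genes in the legend), with the median of all genes tested as a dash at 0. The medians of the BMP and GDF ligands lie below 0 in all pairs, from −0.38 to −0.15. The SMAD, receptor and antagonist medians lie between 0.42 and 0.61 in pair 4 and lower in the others.

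The .L and .S copies of a gene were both tested, each on probe sets of its own, for 9 genes. The sign of the treatment difference was the same in both copies for 5 of them, acvr1, bambi, bmp2, id2 and twsg1. It differed for acvr2b, bmp1, msx1 and smad1, where the differences lay between −0.13 and 0.12. For bmp2 and id2 the .S copy had the larger difference, −0.59 beside −0.29 and 0.46 beside 0.36, and the difference between copies was not tested.

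The second comparison asks how far these genes differed between the 2 clutches, as clutch B minus clutch A with treatment in the model. The fit took the 8 arrays as separate, although the pools of a pair shared clutch and handling. Its SE and p-values therefore do not measure the spread between clutches of different parents. The methods of the study do not say which exposure day and extraction each pair had, so that clutch and handling cannot be told apart. Of the 56 genes 1 passed the adjusted threshold, 1.79% against 1.28% of all genes. Without adjustment, at p under 0.05, 8 were higher in clutch B, 14.3% against 9.8%, and 0 were lower, against 12.1%. In all, 47 of 56 means were higher in clutch B, with a median of 0.19 beside −0.01 over all genes. Some marker lists had clutch medians as high: 0.27 for limb mesenchyme, 0.32 for endothelial, 0.40 for muscle and 0.23 for cartilage genes. Those of epidermal, blood, and nerve and glial genes were −0.09, −0.11 and −0.0006. The part of cell composition in the clutch differences was not tested.

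The gene that passed was smad7.L, for the inhibitory SMAD that is induced by BMP and TGF-beta and blocks their receptors. In clutch A it read 164 and 158 with ethanol and 163 and 138 with cyclopamine, and in clutch B 293 and 238 with ethanol and 338 and 353 with cyclopamine. Every array of clutch B lay above every array of clutch A, and the difference was 0.96 (SE 0.14, adjusted p 0.0311), 1.94-fold higher in clutch B. Its 3 probe sets, each tested on its own, had differences of 0.94 (adjusted p 0.0373), 1.28 (adjusted p 0.0475) and 0.65 (adjusted p 0.0999). The dimmest of them was at the floor on both arrays of pair 1. The call was kept without ethanol array 4 (adjusted p 0.0478) and lost when any other array was left out, with adjusted p between 0.0559 and 0.117.

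Other genes with clutches that did not overlap were ligands, a receptor and a Follistatin-like gene. For bmp4.S all 4 arrays of clutch B (between 119 and 231) lay above those of clutch A (between 75.4 and 111), at 0.72 (SE 0.16, adjusted p 0.0727). The shared bmp4 probe set differed by 0.50 (SE 0.12, adjusted p 0.091). Fstl1.L, a secreted Follistatin-like glycoprotein, read 1165, 1079.9, 978 and 1206 in clutch A (ethanol 1 and 2, then cyclopamine 1 and 2) and 1669, 1473, 1389 and 1282 in clutch B, at 0.39 (SE 0.11, adjusted p 0.104). The receptor acvr1.S read 638, 450.0, 653 and 526 in clutch A and 773, 700.2, 801 and 1022 in clutch B, at 0.54 (SE 0.15, adjusted p 0.109). With smad7.L these made 5 of 56 genes that were higher in clutch B without overlap, 8.93% against 5.1% of all genes, and 0 were lower without overlap, against 6.46%. None of the 4 passed the adjusted threshold. The shared bmp2 probe set differed by 0.77 (SE 0.25, adjusted p 0.145), while bmp2.L and bmp2.S differed by 0.03 and 0.14. Lower means in clutch B were found for 9 genes, among them bmpr2.S at −0.44 (SE 0.27), gdf7.S at −0.29 (SE 0.25), bambi.L at −0.29 (SE 0.18) and smad2.L at −0.19 (SE 0.17). Gdf7.S, a ligand named for growth and differentiation factor, read 96.3, 164, 147 and 88.5 in clutch A and 74.5, 113, 93.1 and 117 in clutch B.

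**Figure D5:**
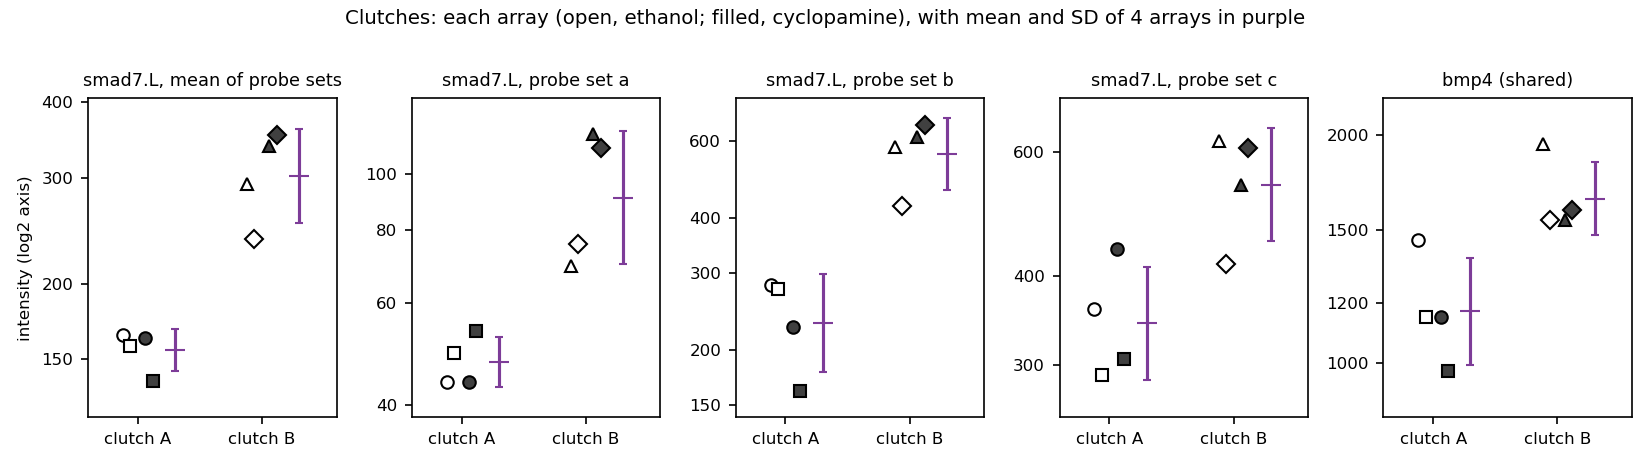
Intensity (log2 axis) of smad7.L, as the mean of its probe sets and on each of 3 probe sets, and of the shared bmp4 probe set, by clutch; open symbols are ethanol and filled symbols cyclopamine arrays, and purple bars give mean and SD of 4 arrays on the log2 scale. The arrays of clutch A (138 to 164 for the mean of smad7.L) and clutch B (238 to 353) do not overlap except on probe set c.

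The third comparison asks whether the response to cyclopamine differed between the clutches. By the interaction term, 0 of the 56 genes passed the adjusted threshold, as did 0% of all genes. At an unadjusted p under 0.05, 3 did, 5.36% against 3.72%, and all 3 had an adjusted p of 0.999. The first was bambi.L, which read 259.8 and 226 with ethanol and 387 and 367 with cyclopamine in clutch A, and 279.6 and 239.8 with ethanol and 212 and 265 with cyclopamine in clutch B. Its treatment difference was 0.64 in clutch A and −0.13 in clutch B. The shared bambi probe set did not show this, with differences of 0.21 and 0.42. Twsg1.S read 63.1 and 70.1 with ethanol and 68.1 and 43.7 with cyclopamine in clutch A, and 60.5 and 82.7 with ethanol and 124 and 126 with cyclopamine in clutch B. Its difference was −0.29 in clutch A, where 1 array was at the floor, and 0.82 in clutch B. For fst.L the differences were −0.96 and −0.13, the latter made of −0.55 in pair 3 and 0.29 in pair 4.

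Other genes of the same pathways, outside the rule, were read from a list of ligand-binding proteins, intracellular regulators and further response genes. Of 100 such genes on the array 90 were tested. None passed the adjusted threshold in the treatment comparison (lowest adjusted p 0.582), while 4 were higher and 1 lower at p under 0.05 without adjustment, where 2.4% and 3.88% of all genes were. The median difference was 0.07, close to that of the 56. The 33 further response genes among them also had a median of 0.07, beside 0.26 for the 11 response genes of the rule. At p under 0.05 without adjustment, 0 of the 33 were higher and 0 lower. The higher ones were rock2.L at 0.32 (SE 0.12), foxh1.L at 0.32 (SE 0.13), tob2.L at 0.28 (SE 0.08) and pmepa1.L at 0.48 (SE 0.15). Foxh1.L was at the floor on 3 ethanol arrays and 1 cyclopamine array. The product of tob2.L belongs to the antiproliferative TOB family that binds SMADs, and pmepa1.L encodes a membrane protein that sequesters SMAD2 and SMAD3. The lower was cul1.S, a ubiquitin ligase scaffold, at −0.53 (SE 0.23).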

How the data were processed

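The authors deposited 1 linear intensity per probe set and array, which the labels call normalized. How background was corrected and probes were summarized and scaled was not given in the sources used here. In the deposited values the mean of each array, trimmed by 2% at each end, lay between 500.07 and 500.08. The arrays had therefore been brought to a common level before the steps below. Removing 120 control probe sets from 15611 left 15491. Symbols are those of the array's annotation, of which 71 of the 75 described here matched RefSeq names (assembly Xenopus_laevis_v10.1, used for names only). No coordinates are given, since no build is named for the array. Because log2 medians of the arrays spanned 0.206, quantile normalization was applied, followed by a floor at the 20th percentile and the log2. A gene with several probe sets was given their mean, separately for .L and .S.

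The treatment model, fitted by limma 3.58.1 (R 4.3.3), had no block, as the study's own t-statistic has none, with Benjamini-Hochberg adjustment over all 12380 tested. Clutch was tested with treatment as a covariate. Intervals at 95% come from the same fits. The code was tested on simulated data. The members and the lists of roles, cell type markers and other pathway genes were chosen with earlier results of these data known. The genes with values on every array are the 5 of smallest p per direction for treatment and for clutch, the 2 of smallest p for the interaction, and all tested bmp2, bmp4, bmp7, grem1, nog, fst, bambi, msx and id genes; other genes with values on every array (tgfb2.L, acvr1.L and twsg1.L) and other named genes were chosen after their values were seen. P-values measure the spread between pools, and the number of arrays limits the precision. The numbers are taken to pair the arrays from the methods of the study. The correlation of their deviations from the group mean was 0.349, 0.511 and 0.297 in pairs 1, 2 and 3 and −0.095 in pair 4. Across the pairs of clutch A it was −0.186 (ethanol 1, cyclopamine 2) and 0.199 (ethanol 2, cyclopamine 1). Across those of clutch B it was 0.509 (ethanol 3, cyclopamine 4) and 0.284 (ethanol 4, cyclopamine 3). In clutch B the correlations were therefore not higher within pairs than across them. Alternatives were a replicate or clutch block, other scalings, another floor, a filter on dim genes, each probe set on its own, the methods' t-test and leaving out each array.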

Additional observations from a re-analysis of the deposited data

Results flagged for a closer look

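On ethanol array 2, id3.S read 2124, against 3220.4 to 3331 on the other 3 ethanol arrays. The gap to the nearest of them was 0.925 of the range of the group, above the value that Dixon's test allows at 95% for 4 samples. It was the only such case among the 60 groups of 4 arrays tested, those of the 30 genes with values on every array by the naming rule, and chance alone flags about 1 in 20 groups. The cause was not tested.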

How the results depend on the processing

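None of the BMP and TGF-beta genes passed the adjusted threshold for treatment or for the interaction under any alternative run. Of all genes or probe sets tested, between 1 and 4 passed for treatment and 0 for the interaction. With the replicate block, which pairs the arrays, 0 of the 56 passed and the median difference was 0.08. Without adjustment the block gave 8 higher and 5 lower in place of 7 and 2, among the lower ones bmp2.L, bmp4.S and grem1.L. Leaving out each array gave medians from 0.01 to 0.18. For clutch the count was 2 with each probe set on its own, both of smad7.L, and between 0 and 1 with an array left out. For the interaction, equal array medians, the other floor and leaving out arrays were chosen after seeing the data. Of the 56 treatment differences, 21 changed sign or, for gdf3.S, reached 0 with some array left out. All of them were within 0.21 of 0 in the full fit, and the cause was not tested. Ranges follow for those given on every array by the naming rule. With equal array medians id3 differed by −0.0095. With each array left out in turn, the lowest and highest treatment differences were −0.018 and 0.12 for bambi.S, −0.36 and 0.081 for the shared bmp2 probe set, −0.15 and 0.23 for gdf7.S, −0.11 and 0.22 for id3, −0.077 and 0.14 for msx1.L, −0.27 and 0.062 for msx1.S, −0.042 and 0.35 for nog.L, −0.059 and 0.18 for smad2.L, and −0.068 and 0.38 for smad7.L. The clutch difference of the shared bambi probe set ranged from −0.13 to 0.035. The SEs of gdf3.S (0.08) and inhbc.1.L (0.07), at the floor on most arrays, are small because floored values are equal. They do not measure precision.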
